A study of Homo sapiens with 18 samples.

Results

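Antisense long non-coding RNAs were examined through the 391 genes whose symbol ends in -AS1 and which averaged 20 or more raw counts over the 12 libraries of parental cells, out of 1635 genes with such a symbol and 57500 genes in the files. These genes were chosen by name and by that mean count, so that a gene passed through a high level in either cell line, and the level itself is not a result. The 2 genes nearest to the minimum from below, *UFD1-AS1* and *SSBP3-AS1*, averaged 19.7 and 19.8 counts, and the 2 nearest from above, *RBM12B-AS1* and *ALDH1A3-AS1*, averaged 20 counts each. Of the genes left out, 299 had 0 counts in all 12 parental libraries. The annotation classes 386 of the 391 as lncRNA.

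RNA was sequenced from the Ewing sarcoma line ES8 and the rhabdomyosarcoma line Rh30 in 18 libraries, 3 for each of 6 conditions, to ask how loss of the HSP70 co-chaperone DNAJC17 changes gene expression. All cells carried dCas9-KRAB, a repressor that an sgRNA leads to a gene. In each line, parental cells received a non-targeting sgRNA (sgCTL) or an sgRNA to the start of *DNAJC17* (sgDNAJC17), and a separate population that stably expressed FLAG-tagged DNAJC17 without its RNA recognition motif (ΔRRM) received sgDNAJC17. All were kept in puromycin for 72 h. ΔRRM cells with sgCTL were not analysed here, so that a difference between ΔRRM and parental cells can belong to the allele or to the derived population, and these cannot be told apart. Cells were plated in triplicate within a condition, and p-values measure the spread between these plates. In bulk RNA, fewer cells of a kind and less RNA per cell cannot be told apart.

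An antisense RNA is transcribed from the strand opposite to another gene and takes that gene's name with the suffix AS. Some start next to the promoter of the sense gene and run away from it, others start within or beyond it and cross its exons and introns, and individual members have been described as regulators of their neighbour, as hosts of small nucleolar RNAs or as by-products of transcription. Many are kept low by the nuclear exosome, the complex that degrades RNA from its 3′ end, and several are spliced and polyadenylated like messenger RNA.

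In the coordinates of the files, which match GRCh38, 174 of the 391 genes overlapped the 5′ end of the sense gene of their name and 84 its 3′ end, 71 lay inside it and 31 spanned it. Another 23 lay apart on its 5′ side and 5 on its 3′ side, 1 (*PYDC2-AS1*) was annotated on the same strand, and for 2 the sense name matched no gene. Their exons covered a median of 2458 bases, and in 313 of them some exonic bases lay under exons of the other strand. Of lncRNA genes whose exons lay wholly under opposite exons, 359 of 359 had 0 counts in all 18 libraries, against 35.6% of 9332 lncRNA genes free of such overlap. Of 14 protein-coding genes placed in the same way 12 had 0 counts, and none had more than 3 in sum. Reads on shared exons were therefore left out of the tables without regard to strand, and the antisense counts come from the remaining bases, a median of 2046. For 111 genes at least 90% of these countable bases lay in introns of the other strand, and for 75 none did. Reads from unspliced RNA of the sense gene cannot be told apart from antisense reads at such bases, and the share of countable bases in opposite introns (intron share) is given with the genes described below.

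The start sites that RefSeq (GRCh38.p14) gives for 7 antisense genes with a changed level after knockdown are shown here. Each is given as the 30 bases around that start, 5′ to 3′ on the strand of the antisense gene, with the 15 transcribed bases in capitals, so that the place from which each RNA is read can be seen.
*KIF9-AS1*, chr3:47164355-47164384, plus strand: ggacctggagaggcgGCACCGCGACCCCTC
*SEMA3F-AS1*, chr3:50156071-50156100, minus strand: cacaatgctgggagaAATGCCTCAGGACTG
*EPB41L4A-AS1*, chr5:112160511-112160540, plus strand: tggactcatgaattcTGTCGGGTCCCAAAA
*MID1IP1-AS1*, chrX:38803869-38803898, minus strand: tgtgggggctgggcgGGCCTTGCGCGCGCT
*TGFB2-AS1*, chr1:218345664-218345693, minus strand: ttcctgagggggttgCGCAGGGGCTCCCTT
*ZNF451-AS1*, chr6:57172199-57172228, minus strand: taaccaactccccccACGCGAAGGTTCCTA
*C10orf71-AS1*, chr10:49298879-49298908, minus strand: gtgtgccttggagccAGAGCCCAGAGCCCT

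In these lines the RefSeq start was the gene start in the files for *SEMA3F-AS1*, *EPB41L4A-AS1*, *MID1IP1-AS1* and *TGFB2-AS1*. It lay 127 bases away for *KIF9-AS1*, 125 for *C10orf71-AS1* and 2023 for *ZNF451-AS1*. The 6 letters GGGCGG, the GC box bound by Sp1-type factors, occurred on either strand of the RefSeq promoter (250 bases before to 50 after the start) in 61.5% of the 353 antisense genes with an entry and in 45% of all 35116 promoters. The antisense genes had passed the minimum count, while all promoters include genes below it. Nothing particular to antisense genes is read from this gap. The promoters of *KIF9-AS1*, *MID1IP1-AS1* and *ZNF451-AS1* held it, and those of *SEMA3F-AS1*, *EPB41L4A-AS1*, *TGFB2-AS1* and *C10orf71-AS1* did not have these letters in that window.

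The libraries held between 35342393 and 48245989 counts, of which the 391 genes took 0.141% to 0.151% in ES8 and 0.173% to 0.181% in Rh30. *DNAJC17* followed the labels and had 559 to 625 counts with sgCTL and 59 to 77 with sgDNAJC17 in ES8, and 461 to 522 and 81 to 113 in Rh30, while ΔRRM libraries, where the transgene is read too, held 9849 to 14449. The 5 rhabdomyosarcoma markers summed to 114696 to 123321 counts in Rh30 sgCTL and 4412 to 4737 in ES8, but only 1 of the 5 Ewing sarcoma markers was read in every Rh30 sgCTL library and the sum still came to 13948 to 15642 counts there, against 31978 to 35537 in ES8. The sum of epithelial markers moved with the Rh30 conditions. The 8 of them summed to 48 to 64 counts in Rh30 sgCTL, with *CLDN7* and *RAB25* at 0, to 471 to 816 with sgDNAJC17 and to 455 to 575 in ΔRRM cells, where all 8 were above 0. Most of these counts were from *KRT8* and *KRT18*. *EPCAM* had 9, 5 and 3 counts with sgCTL, 12, 1 and 10 with sgDNAJC17 and 9, 6 and 6 in ΔRRM cells. In ES8 sgCTL the 8 summed to 1678 to 1809 counts. The part of epithelial markers in the Rh30 results was not tested. Replicate A of sgDNAJC17 stood apart from B and C in both lines (chi-square per gene of 27.45 and 31.52 against 2.63 between B and C in ES8, and of 15.97 and 28.75 against 7.16 in Rh30), and counts are also given without it. In ES8 ΔRRM cells replicate B stood apart (31.83 and 20.46 against 9.08), and leaving out any 1 library there gave 0 calls against sgCTL and 4 to 7 against knockdown. Replicate C of these cells held 19 counts of *CDK6-AS1*, which had 0 in every other ES8 library. In replicates A, B and C, *MYOD1* had 30, 38 and 81 counts, *DES* 25, 20 and 78, and *MYOG* 0, 3 and 6. *CHRNG* had 2, 5 and 1 and *FGFR4* 3519, 4156 and 3931. The source of these counts was not tested.

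In the control cells the antisense genes were mostly low and mostly below their sense genes. The minimum count was set on the antisense genes, over libraries that include the sgCTL ones, and not on the sense genes. The levels, the share above the sense gene and their difference between the lines are therefore a description only. Levels are CPM, read counts scaled to library size with TMM factors, and per kilobase of countable exon where genes are compared with each other. With sgCTL, the median antisense level was 0.783 CPM per kb in ES8 and 0.816 in Rh30, and the median of the sense genes was 4.13 and 3.27 CPM per kb. Of 388 pairs with at least 100 countable bases in both genes, the antisense gene was above its sense gene in 79 in ES8 and in 105 in Rh30. Over the 12 parental libraries the members' mean raw count had a median of 66.92, 141 genes reached 100 counts and 9 reached 1000.

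The highest of all per kilobase was *AGAP2-AS1* (chr12:57726271-57728356, inside *AGAP2*, a GTPase-activating protein gene), with 289 CPM per kb over the parental libraries. It had 1342, 1195 and 1225 counts in the ES8 sgCTL libraries and 15451, 17547 and 16669 in those of Rh30, and in Rh30 it stood at 554 CPM per kb against 35.8 for *AGAP2*. *CDK6-AS1* (chr7:92836483-92917187), whose start lies 111 bases from that of the cell cycle kinase gene *CDK6*, followed with 89.2 CPM per kb. It had 0 counts in every ES8 sgCTL library and 3700, 4306 and 4200 in Rh30. *PPP1R14B-AS1* (67.8 CPM per kb), across the 5′ end of a gene for an inhibitor of protein phosphatase 1, had 26 to 39 counts in ES8 sgCTL and 1371 to 1591 in Rh30. *PRR11-AS1* (43 CPM per kb) differed less between the lines, at 356 to 471 counts in ES8 and 487 to 530 in Rh30. *HSD17B1-AS1* (37.1 CPM per kb), inside the gene of an oestradiol-forming enzyme, had 338 to 371 and 792 to 909 counts. All of these but *CDK6-AS1* have 100% of their countable bases in introns of the other strand.

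The levels of many antisense genes differed between the lines. Between Rh30 and ES8 sgCTL libraries, 136 of 391 were higher in Rh30 and 95 were higher in ES8. A call here and in what follows asks for a 2-fold difference with an adjusted p below 0.05 (edgeR quasi-likelihood test, Benjamini-Hochberg adjusted over all genes tested). Among all 17925 genes tested, 22.2% were called higher in Rh30 and 28.7% higher in ES8, against 34.8% and 24.3% of the antisense genes. The minimum count was set on these libraries, and a gene high in 1 line alone could pass it through that line, so these shares are a description and nothing is read from their distance to all genes. Scaling by library totals in place of TMM moved the median of all genes by -0.214 on the log2 scale and gave 122 higher and 104 lower antisense genes. Besides *CDK6-AS1*, the largest differences toward Rh30 were those of *NPAS2-AS1* (147, 181 and 176 counts) and *DIRC3-AS1* (150, 166 and 157 counts), both at 0 in every ES8 sgCTL library. *NPAS2*, a circadian transcription factor gene, and *DIRC3* were also higher in Rh30 and were read in ES8, at 59 to 73 and 31 to 46 counts. The largest toward ES8 were those of *TRHDE-AS1* (915, 961 and 997 counts in ES8), *FEZF1-AS1* (2767, 2712 and 2863) and *DLX6-AS1* (256, 206 and 276). These had 1 count at most in any Rh30 sgCTL library, as did their sense genes *TRHDE*, an ectoenzyme gene, and *FEZF1* and *DLX6*, which encode transcription factors of the developing forebrain. The intron share was 100% for *NPAS2-AS1*, *TRHDE-AS1* and *FEZF1-AS1*, 87.3% for *DIRC3-AS1* and 0 for *DLX6-AS1*.

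**Figure D1:**
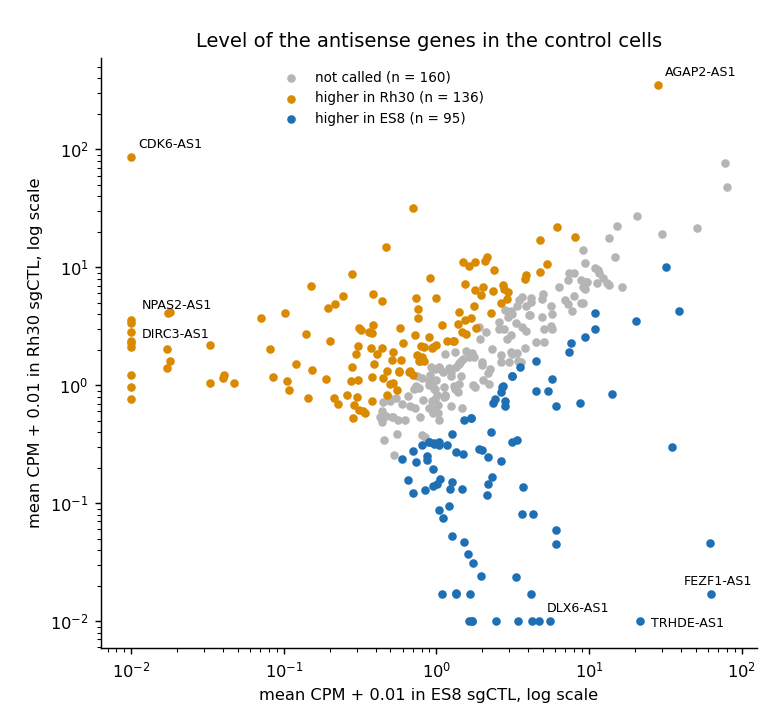
Mean CPM plus 0.01 of each of the 391 antisense genes in the 3 sgCTL libraries of ES8 (x axis, log scale) and of Rh30 (y axis, log scale), coloured by the call between the lines under TMM scaling. A total of 136 genes lie toward Rh30, with *CDK6-AS1* at the left edge since it had 0 counts in ES8, and 95 toward ES8, with *TRHDE-AS1* and *FEZF1-AS1* at the lower right. With library totals the numbers were 122 and 104.

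Knockdown of *DNAJC17* changed few antisense genes. In ES8, 355 of the 391 had enough counts to be tested, and 10 rose and 1 fell by at least 2-fold, while 1.66% of all 17143 genes tested rose and 0.286% fell, against 2.82% and 0.282% of the antisense genes. In Rh30, 4 of 344 rose and 2 fell, and the background was 0.767% up and 0.786% down against 1.16% and 0.581%. Without the fold requirement, 22 antisense genes (6.2%) rose and 18 (5.07%) fell in ES8, where 13.6% and 13.8% of all genes did, and 20 (5.81%) rose and 14 (4.07%) fell in Rh30, where 16.1% and 16.2% did. The antisense genes had a median mean count of 66.92 against 629 for all genes tested in ES8, and the part of that gap in the number of calls was not tested. Their median log2 fold change was 0.02 in ES8 and -0.00 in Rh30, beside -0.02 and 0.00 over all genes. Without sgDNAJC17 replicate A, 9 rose and 2 fell in ES8, and 5 rose and 4 fell in Rh30. The Rh30 rises came to 2 without sgCTL replicate A or sgDNAJC17 replicate C, and the Rh30 falls to 1 without sgCTL replicate B or sgDNAJC17 replicate C and to 4 without sgCTL replicate C.

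Among the 308 antisense genes tested in both lines, *CACTIN-AS1* and *RPL30-AS1* rose in both, while 0.224% of all 13841 genes tested in both did so. At an adjusted p under 0.05 alone, 3 rose in both lines (6.17% of all genes), with *EPB41L4A-AS1* as the third, and 4 fell in both (6.18% of all genes). The 4 that fell were *ASB16-AS1*, *NHSL1-AS1*, *TMPO-AS1* and *ZEB1-AS1*, of which all but *TMPO-AS1* are named here after their values were seen.

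**Figure D2:**
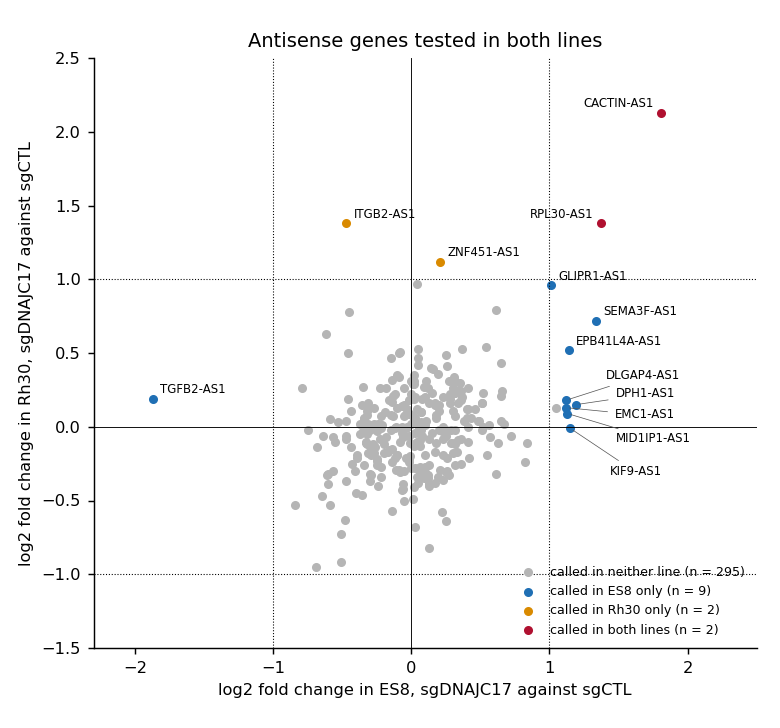
Log2 fold change after knockdown in ES8 (x axis) and Rh30 (y axis) of the 308 antisense genes tested in both lines, with dotted lines at the 2-fold limits. *CACTIN-AS1* and *RPL30-AS1* lie beyond the limit in both lines, while *KIF9-AS1* (1.15 and -0.01) and *TGFB2-AS1* (-1.87 and 0.19) do so in ES8 alone.

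*CACTIN-AS1* (ENSG00000226800, chr19:3607247-3613930, plus strand) overlaps the 3′ end of *CACTIN*, which encodes a nuclear protein associated with the spliceosome, and had the largest rise in both lines. Its counts went from 44, 56 and 67 to 185, 136 and 162 in ES8 and from 9, 8 and 3 to 38, 22 and 24 in Rh30. The knockdown libraries lay above the sgCTL libraries in both lines without overlap. The log2 fold change was 1.81 in ES8 (SE 0.19, adjusted p = 0.000365, edgeR) and 2.13 in Rh30 (SE 0.40, adjusted p = 0.00152). In Rh30 the sgCTL value rests on 20 counts in all. *CACTIN* itself moved by 0.40 in ES8 (adjusted p = 0.00959) and by -0.20 in Rh30 (adjusted p = 0.0873). Of the countable bases of *CACTIN-AS1*, 81.5% lie in introns of the other strand.

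*RPL30-AS1* (ENSG00000245970), inside *RPL30*, a gene for a protein of the large ribosomal subunit, went from 73, 56 and 96 counts to 122, 152 and 208 in ES8 and from 25, 26 and 22 to 80, 47 and 53 in Rh30. The groups did not overlap in either line. The log2 fold change was 1.37 (SE 0.20, adjusted p = 0.00128) and 1.38 (SE 0.24, adjusted p = 0.000931). *RPL30*, with 41986 or more counts in each ES8 sgCTL library, rose by 0.40 and 0.26 (adjusted p = 0.00156 and 0.00514). All countable bases of *RPL30-AS1* lie in introns of the other strand.

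*EPB41L4A-AS1* (chr5:112160526-112164276, plus strand), which hosts a small nucleolar RNA, had the most reads of the genes called after knockdown in either line. It went from 707, 686 and 783 counts to 1260, 1294 and 1390 in ES8 and from 332, 337 and 291 to 426, 404 and 453 in Rh30, in each case without overlap. The log2 fold change was 1.14 in ES8 (SE 0.07, adjusted p = 5.38e-05) and 0.52 in Rh30 (SE 0.11, adjusted p = 0.0031), which passed the p threshold but not the fold requirement there. *EPB41L4A*, read at 12 to 14 counts in ES8 sgCTL, moved by 0.07 (adjusted p = 0.94). The intron share of *EPB41L4A-AS1* is 100%.

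A further 7 antisense genes rose in ES8, by 1.01 to 1.34 on the log2 scale. *SEMA3F-AS1*, across the 5′ end of the semaphorin gene *SEMA3F*, had 28, 21 and 29 counts with sgCTL and 51, 65 and 47 after knockdown, a log2 fold change of 1.34 (SE 0.24, adjusted p = 0.0035). *DPH1-AS1* lies 45 bases beyond the 3′ side of *DPH1*, a diphthamide synthesis gene, and none of its countable bases lie in opposite introns. It had 16, 15 and 18 counts and then 33, 32 and 27, a log2 fold change of 1.19 (SE 0.27, adjusted p = 0.0106). *KIF9-AS1* (chr3:47164497-47246601), which overlaps the 3′ end of the kinesin gene *KIF9* and has 91.8% of its countable bases in opposite introns, went from 139, 160 and 138 to 268, 258 and 273 counts (log2 fold change 1.15, SE 0.12, adjusted p = 0.000368). In each of these 3 genes the knockdown libraries were above every sgCTL library. *MID1IP1-AS1*, inside *MID1IP1*, a gene of lipid synthesis control, went from 70, 70 and 95 to 144, 132 and 148 counts (1.13, SE 0.15, adjusted p = 0.000883), and *GLIPR1-AS1* from 59, 78 and 60 to 75, 124 and 132 counts (1.01, SE 0.22, adjusted p = 0.00816), where 1 knockdown library lay within the sgCTL range of raw counts. *DLGAP4-AS1* and *EMC1-AS1*, named here after their values were seen, had 16 to 38 counts with sgCTL and both rose by 1.12 (adjusted p = 0.0134 and 0.0311). The intron share is 91.3% for *SEMA3F-AS1*, 100% for *MID1IP1-AS1* and *GLIPR1-AS1*, 55.1% for *DLGAP4-AS1* and 40.5% for *EMC1-AS1*.

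*TGFB2-AS1* (chr1:218344196-218345678, minus strand), which starts 557 bases from the growth factor gene *TGFB2* and runs away from it, was the 1 antisense gene that fell by 2-fold in ES8. It had 13, 13 and 24 counts with sgCTL and 4, 2 and 5 after knockdown, a log2 fold change of -1.87 (SE 0.48, adjusted p = 0.0171), and it lost the call without sgCTL replicate C (-1.55) or without sgDNAJC17 replicate B (-1.60). In Rh30, where it was abundant, it had 295, 270 and 266 counts and then 362, 245 and 285, which overlap. *TGFB2* had 74, 44 and 62 counts and then 20, 43 and 46 in ES8 (log2 fold change -0.45, adjusted p = 0.278). No countable base of *TGFB2-AS1* lies in an opposite intron.

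Of the other Rh30 calls given here, those of *ITGB2-AS1* and *ZNF451-AS1* were in genes of low count, with 7 to 14 counts in the sgCTL libraries. *ITGB2-AS1*, inside the leukocyte integrin gene *ITGB2*, had 11, 13 and 7 counts with sgCTL and 26, 12 and 38 after knockdown, a log2 fold change of 1.38 (SE 0.43, adjusted p = 0.0257), and the groups overlapped. It fell to 0.91 and below the threshold without sgDNAJC17 replicate C, and it also lost the call without sgCTL replicate A or C. *ZNF451-AS1*, from a locus of a SUMO ligase gene, went from 10, 14 and 11 to 23, 23 and 25 counts (1.12, SE 0.33, adjusted p = 0.0191). The groups did not overlap, but the call was lost by DESeq2 and without any of 4 libraries (sgCTL A or C, sgDNAJC17 B or C), with values from 1.04 to 1.08. *C10orf71-AS1* had 58, 94 and 73 counts and then 37, 45 and 19 (-1.05, SE 0.28, adjusted p = 0.0104), and lost the call without sgCTL replicate B (-0.88) or sgDNAJC17 replicate C (-0.79). *C10orf71* fell with its antisense gene by 1.27 on the log2 scale (adjusted p = 1.97e-05), from 349, 333 and 313 to 170, 106 and 112 counts. The intron share is 100% for *ITGB2-AS1*, 72.5% for *ZNF451-AS1* and 0 for *C10orf71-AS1*.

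**Figure D3:**
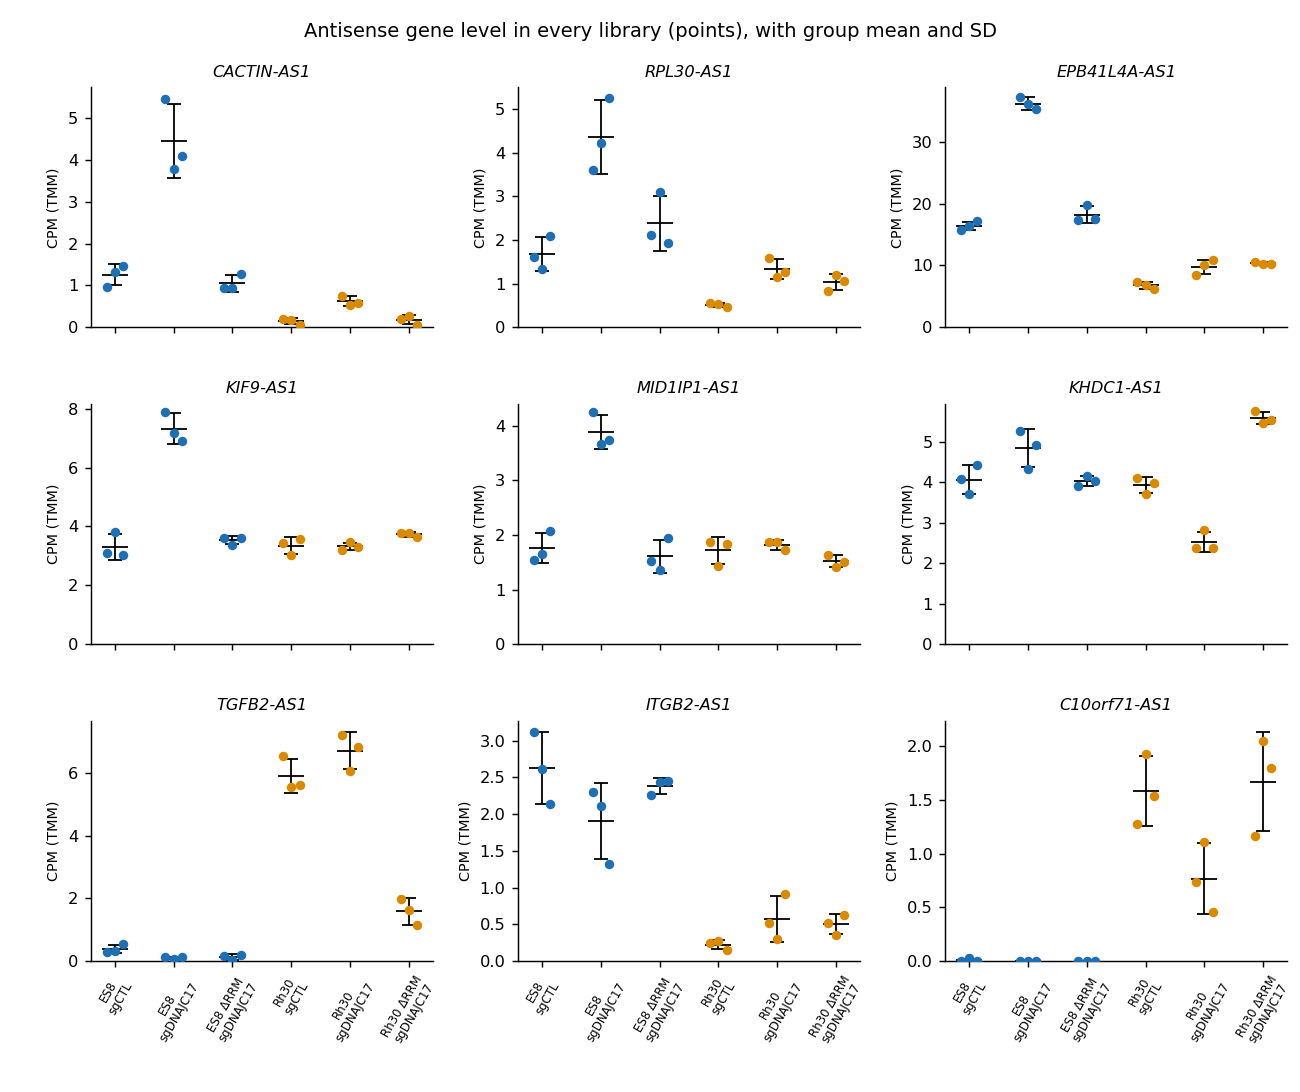
CPM (TMM) of 9 antisense genes in each of the 18 libraries (points), with the mean and SD of the 3 libraries of a group, ES8 in blue and Rh30 in orange. *CACTIN-AS1* and *RPL30-AS1* are higher after knockdown in both lines, *KIF9-AS1* and *MID1IP1-AS1* in ES8, and *TGFB2-AS1* is lowest in Rh30 in the ΔRRM libraries.

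For 14 of 391 antisense genes the response to knockdown was not the same in both lines (interaction term fitted on the 12 parental libraries, adjusted p below 0.05). The Rh30 change was above the ES8 change in 7 (1.79%, and 5.23% of all 18899 genes) and below it in 7 (1.79%, and 4.55% of all genes). The smallest p was that of *KIF9-AS1*, with a difference of -1.13 on the log2 scale (SE 0.18, adjusted p = 0.000984): its Rh30 counts were 156, 148 and 169 with sgCTL and 161, 140 and 138 after knockdown. *TGFB2-AS1* came next, with a difference of 2.09 (SE 0.45, adjusted p = 0.00612). *KHDC1-AS1* (chr6:73263215-73301401), inside *KHDC1* with an intron share of 100%, had a difference of -0.86 (SE 0.19, adjusted p = 0.00677). It went from 184, 156 and 202 to 179, 156 and 195 counts in ES8, a log2 fold change of 0.25 (adjusted p = 0.162), and from 186, 181 and 189 to 119, 114 and 100 in Rh30, a log2 fold change of -0.64 (adjusted p = 0.00261). *KHDC1* was nearly silent in Rh30, with 0 to 4 counts in the parental libraries, while its antisense gene had 100 counts or more in each of them. For *CACTIN-AS1* and *RPL30-AS1* the differences were 0.35 (adjusted p = 0.691) and 0.04 (adjusted p = 0.991). The 14 became 8, 9 and 9 without ES8 sgCTL replicates A, B and C and 8 without Rh30 sgDNAJC17 replicate C. They became 17 without ES8 sgDNAJC17 replicate A and 17 without Rh30 sgDNAJC17 replicate A.

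Each antisense gene was then compared with the sense gene of its name. Across 336 pairs tested in ES8 the log2 fold changes of the 2 genes had a Pearson r of 0.21 and a Spearman rho of 0.17, and across 321 pairs in Rh30 both were 0.22. These are descriptions across pairs that share the same libraries and, in part, the same bases. In pairs with no countable base in opposite introns, r and rho were 0.31 and 0.13 over 64 pairs in ES8 and 0.33 and 0.23 over 67 in Rh30, and in pairs with an intron share of at least 90% they were 0.18 and 0.16 over 96 pairs and 0.35 and 0.31 over 88. In ES8, 40 antisense genes and 113 sense genes of these pairs passed an adjusted p of 0.05: both moved the same way in 12 pairs and opposite ways in 3, the antisense gene alone passed in 25 and the sense gene alone in 98. In Rh30, 30 antisense and 123 sense genes passed, with 10 pairs the same way, 3 opposite, 17 with the antisense gene alone and 110 with the sense gene alone.

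The ratio of antisense to sense CPM was tested with limma over all opposite-strand pairs within 1 kb and all pairs of an antisense gene with its sense gene. In ES8 the ratio rose in 31 and fell in 24 of 336 antisense pairs at an adjusted p under 0.05 (9.23% and 7.14%). Of all 4941 pairs, 13.4% were called with a positive and 14.6% with a negative sign. In Rh30 the ratio rose in 19 and fell in 11 of 321 antisense pairs (5.92% and 3.43%). Of all 4281 pairs, 9.39% were called with a positive and 9.46% with a negative sign. Other pairs were entered in order of chromosome position, so their sign does not mean an antisense rise or fall. Only the calls of both signs together can be set beside the antisense pairs. In Rh30 the replicate letters marked shared deviations, and with the letter as a block 59 antisense pairs were called in place of 30. Leaving out 1 library gave 14 to 48 pairs in Rh30, with 48 without sgDNAJC17 replicate A, 14 without sgDNAJC17 replicate B, 18 without C, and 16, 18 and 19 without sgCTL replicates A, B and C.

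In 7 of the 284 antisense pairs tested in both lines (2.46%) the ratio was called in the same direction in both, and 10.9% of all 3729 pairs tested in both lines were. The part of the low counts of the antisense genes in the distance of these ratio shares to all pairs was not tested. It rose for *CACTIN-AS1* (by 1.38 on the log2 scale in ES8 and 2.13 in Rh30), *RPL30-AS1* (0.95 and 1.04), *SVIL-AS1* (0.63 and 0.92), *TMEM44-AS1* (0.65 and 0.58) and *TTC28-AS1* (0.54 and 0.68). It fell for *EMC3-AS1* (-0.81 and -0.46) and *TMPO-AS1* (-0.52 and -0.69). For *SVIL-AS1* the sense gene, which encodes the actin-binding protein supervillin, fell from 897, 1062 and 1068 to 568, 537 and 606 counts in ES8 and from 2212, 2110 and 2059 to 1580, 1172 and 1088 in Rh30 (log2 fold changes of -0.55 and -0.64, adjusted p = 0.00404 and 0.000106). The antisense gene moved by 0.09 and 0.27 (adjusted p = 0.453 and 0.00731). For *TMPO-AS1*, which starts 910 bases from the nuclear lamina gene *TMPO* and has 3.97% of its countable bases in opposite introns, the antisense gene fell by 0.40 and by 0.45 on the log2 scale (adjusted p = 0.0205 and 0.0103). *TMPO* moved by 0.14 and 0.25 (adjusted p = 0.348 and 0.00549). *TMPO-AS1* had 666, 564 and 562 counts and then 317, 373 and 436 in ES8, and 277, 389 and 331 and then 268, 219 and 193 in Rh30. For *EMC3-AS1*, inside the gene of a subunit of the ER membrane complex, the antisense gene fell in ES8 (-0.47, adjusted p = 0.0042) and *EMC3* rose in both lines (0.34 and 0.38). The intron share is 50.6% for *SVIL-AS1*, 57.3% for *TMEM44-AS1*, 85.7% for *TTC28-AS1* and 100% for *EMC3-AS1*.

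**Figure D4:**
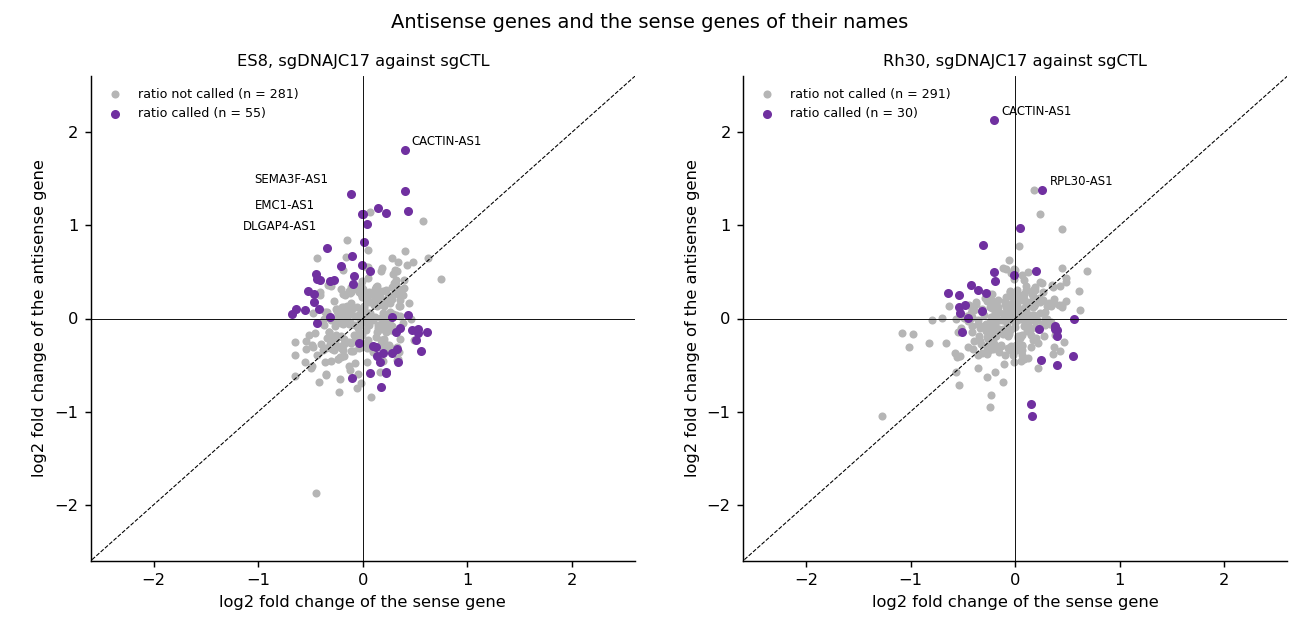
Log2 fold change after knockdown of each antisense gene (y axis) against that of the sense gene of its name (x axis), in ES8 (336 pairs, left) and Rh30 (321 pairs, right), with pairs whose ratio was called in purple and the line of equal change dashed. Names mark pairs described in the text whose ratio was called and changed by at least 2-fold, and *CACTIN-AS1* lies farthest above the line in both panels.

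The calls after knockdown are given by position as counts, without a test. In ES8, 4 of 76 genes across the 3′ end of the sense gene rose by 2-fold, as did 4 of 62 inside it, 1 of 160 across its 5′ end and 1 of 4 apart from it on the 3′ side. The 1 fall was among the 20 tested on the 5′ side. Of genes with over 50% of their countable bases in opposite introns 8 of 160 rose in ES8. Of those with over 0 to 50% 1 of 128 did, and of those with none 1 of 67. Among all genes tested 1.66% rose and 0.286% fell in ES8, and 0.767% rose and 0.786% fell in Rh30. These counts are small, and nothing about position or intron share is read from them. In Rh30 all 4 rises were among the 151 genes with over 50%. Other non-coding classes chosen by symbol with the same minimum count are given for comparison. Of divergent transcripts (symbols ending in -DT), 4 of 157 rose by 2-fold in ES8, and 2 of 160 rose and 1 fell in Rh30. Of antisense genes with other numbers (-AS2 and higher), none of 28 was called in ES8, and 1 of 21 fell in Rh30 and none rose. Of intergenic RNAs (LINC), 1 of 135 rose and 2 fell in ES8, and 1 of 158 fell in Rh30.

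Genes of the machinery that degrades such RNAs changed by less than 2-fold. Of 10 nuclear RNA decay genes, 3 fell in ES8 at an adjusted p under 0.05 (*ZFC3H1* by 0.63, *XRN2* by 0.36 and *EXOSC10* by 0.23 on the log2 scale). In Rh30, 4 rose (*ZCCHC8*, *DIS3*, *RBM7* and *EXOSC3*, by 0.21 to 0.27) and 2 fell (*ZFC3H1* and *EXOSC10*, with log2 fold changes of -0.31 and -0.22). ZFC3H1 is a part of the complex that hands polyadenylated nuclear RNA to the exosome, and EXOSC10 is a nuclease of the exosome. Of 7 nonsense-mediated decay genes, *SMG1* fell in both lines (-0.48 and -0.34), *SMG5* rose in ES8 (0.30), and *UPF1*, *UPF2* and *SMG6* fell in Rh30 (-0.28, -0.43 and -0.33). At the same threshold 13.6% of all genes rose and 13.8% fell in ES8, and 16.1% rose and 16.2% fell in Rh30, and nothing particular to these short lists is read from their counts.

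In ES8 cells with ΔRRM, no antisense gene was called against parental sgCTL cells. In that comparison 0.0116% of all 17199 genes were called up and 0.0233% down, edgeR gave an unadjusted p under 0.05 for 29 of 357 antisense genes (8.12%, and 13.4% of all genes), and DESeq2 called none either. Against parental knockdown cells, 6 of 353 antisense genes were lower in ΔRRM cells and none was higher, where 1.49% of all 17099 genes were lower and 0.48% higher. At an adjusted p under 0.05 alone 17 were lower and 5 higher (7.36% and 7.35% of all genes were), an unadjusted p under 0.05 was reached by 68 (19.3%, and 30.2% of all genes), and DESeq2 called 5 with the fold requirement.

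Of the 6, *CACTIN-AS1*, *GLIPR1-AS1*, *MID1IP1-AS1* and *KIF9-AS1* had risen on knockdown. *CACTIN-AS1* had 38, 40 and 53 counts in ΔRRM cells, all below the 136 to 185 of the knockdown libraries (log2 fold change -2.06, SE 0.20, adjusted p = 0.00023, edgeR), and differed from sgCTL by -0.26 (SE 0.24, adjusted p = 0.64). *KIF9-AS1* had 147, 144 and 149 counts (-1.04, SE 0.13, adjusted p = 0.000952) and *MID1IP1-AS1* had 62, 58 and 81 (-1.26, SE 0.18, adjusted p = 0.00149), both below every knockdown library. *GLIPR1-AS1* had 26, 47 and 62 counts (-1.47, SE 0.28, adjusted p = 0.00597) and *ZNF687-AS1* had 36, 30 and 42 against 72 to 76 (-1.21, SE 0.22, adjusted p = 0.00444). The sixth, *DNAJC27-AS1*, named after its values were seen, had 24, 18 and 15 counts against 25 to 46 (-1.16, adjusted p = 0.035). *EPB41L4A-AS1*, with 703, 844 and 729 counts, was lower than after knockdown by 0.97 on the log2 scale (adjusted p = 0.00043). The other genes that rose in ES8 were not called lower in ΔRRM cells. *DPH1-AS1* had 32, 34 and 32 counts, near the knockdown libraries (-0.09, SE 0.27, adjusted p = 0.846), and differed from sgCTL by 1.09 (SE 0.28, adjusted p = 0.19). *RPL30-AS1* had 2.12, 3.1 and 1.93 CPM, against 1.33 to 2.1 with sgCTL and 3.6 to 5.26 after knockdown. *SEMA3F-AS1* had 35, 51 and 24 counts against 47 to 65 after knockdown. *DLGAP4-AS1* (28, 23 and 26 counts) and *EMC1-AS1* (34, 35 and 21) had fewer than in their knockdown libraries (32 to 39 and 37 to 49). The intron share is 0 for *ZNF687-AS1* and 1.14% for *DNAJC27-AS1*. These comparisons share the knockdown libraries with the knockdown test and are not independent of it.

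In Rh30 the ΔRRM cells differed far more from parental cells. Against sgCTL, 29 of 345 antisense genes were higher and 8 lower, where 6.66% and 3.32% of all 15442 genes were, against 8.41% and 2.32% of the antisense genes. Against knockdown, 33 of 342 were higher and 11 lower, where 4.42% and 3.36% of all 15309 genes were, against 9.65% and 3.22%. The split depends on the scaling. With library totals in place of TMM the median of all genes moved by -0.235 against sgCTL and by -0.163 against knockdown, and the antisense genes split into 15 higher and 22 lower and into 19 higher and 18 lower. Under TMM the ΔRRM libraries differed from sgCTL by a median log2 fold change of 0.23 for the antisense genes, 0.47 for divergent transcripts, 0.18 for intergenic RNAs, -0.28 for the sense genes and -0.01 for all genes. The shift of -0.235 was as large as or larger than the antisense and intergenic medians.

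Single genes moved by more than this shift. *TGFB2-AS1* fell from 295, 270 and 266 counts with sgCTL to 80, 69 and 36 in ΔRRM cells, below every parental Rh30 library (log2 fold change -1.86, SE 0.15, adjusted p = 1.54e-16), and *TGFB2* fell with it from 1277, 1253 and 1145 to 268, 341 and 252 counts (-1.77, adjusted p = 1.97e-25). *PABPC5-AS1*, which starts 404 bases from *PABPC5*, a poly(A)-binding protein gene, went from 49, 57 and 45 to 9, 15 and 11 counts (-1.78, SE 0.34, adjusted p = 4.92e-06), and *PABPC5* from 850, 1009 and 1036 to 446, 451 and 371 (-0.87, adjusted p = 5.74e-14). Both antisense genes were also below the knockdown libraries, by 2.06 and 2.18 on the log2 scale. The intron share of *PABPC5-AS1* is 22.8%.

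Among those that were higher, *RBM15-AS1*, which starts 665 bases from *RBM15*, a gene of the m6A writer complex, went from 110, 163 and 128 to 324, 316 and 226 counts (1.43, SE 0.13, adjusted p = 1.95e-15), while *RBM15* moved by -0.10 (adjusted p = 0.237). *MCPH1-AS1* had 8, 21 and 15 counts with sgCTL and 27, 41 and 39 in ΔRRM cells (1.61, SE 0.35, adjusted p = 5.63e-05). *SOX9-AS1*, which spans the gene of the transcription factor SOX9, had 91, 116 and 128 counts with sgCTL, 72, 70 and 67 after knockdown and 233, 233 and 205 in ΔRRM cells (1.89 against knockdown, SE 0.16, adjusted p = 3.34e-18). *SOX9* moved the other way against sgCTL (-0.60, adjusted p = 3.36e-09), from 904 to 939 counts down to 445 to 508. *SPRY4-AS1*, beside an inhibitor of receptor tyrosine kinase signalling, had 12, 14 and 10 counts in ΔRRM cells and 3, 1 and 0 after knockdown. Its log2 fold change of 3.26 (SE 0.70, adjusted p = 3.99e-05) rests on 4 counts in the knockdown libraries. *PPP1R14B-AS1* was higher too, with 3063, 2696 and 2425 counts against 1371, 1591 and 1552 with sgCTL (1.19, SE 0.07, adjusted p = 7.53e-23). The intron share is 0 for *RBM15-AS1*, 76.4% for *MCPH1-AS1*, 54.6% for *SOX9-AS1* and 41% for *SPRY4-AS1*.

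Of the Rh30 knockdown calls, *CACTIN-AS1* had 8, 12 and 2 counts in ΔRRM cells and was lower than after knockdown by 1.71 on the log2 scale (adjusted p = 0.000347). *C10orf71-AS1* had 47, 87 and 57 counts there (1.12, SE 0.26, adjusted p = 0.000147). *RPL30-AS1*, with 34, 51 and 34 counts, overlapped the knockdown range (-0.38, SE 0.25, adjusted p = 0.187) and lay above sgCTL (1.02, SE 0.30, adjusted p = 0.0023). *ITGB2-AS1*, at 21, 15 and 20 counts, was also above sgCTL (1.18, adjusted p = 0.0112). The sum of epithelial markers was higher in both groups of sgDNAJC17 libraries of Rh30 than with sgCTL. *RPL30-AS1* and *ITGB2-AS1* had the same order of groups. The part of epithelial markers in these values was not tested.

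**Figure D5:**
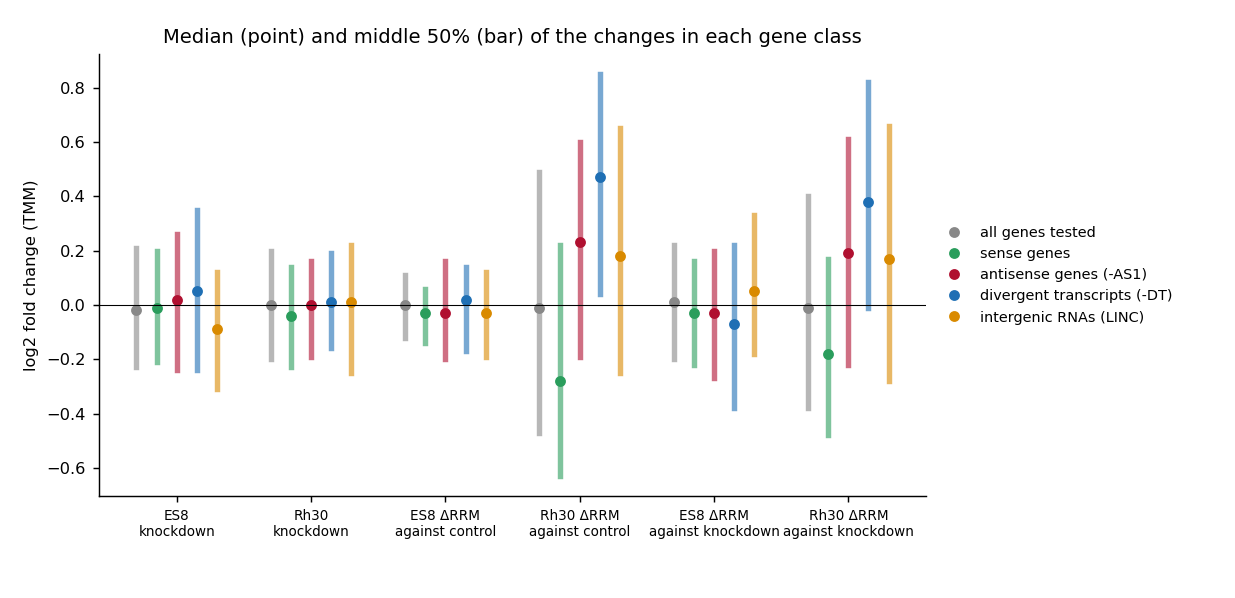
Median (points) and middle 50% (bars) of the log2 fold changes under TMM scaling of all genes, the sense genes, the antisense genes and 2 other non-coding classes in 6 comparisons. The antisense median lies between -0.03 and 0.02 after knockdown and in ES8 ΔRRM cells, and at 0.23 and 0.19 in the Rh30 ΔRRM comparisons, where scaling by library totals lowers the median of all genes by 0.235 and 0.163.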

How the data were processed

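RNA of 18 libraries was selected for poly-A and prepared with the NEBNext Ultra kit. The deposited values are raw read counts per gene, which the authors made with Trimmomatic 0.36, STAR 2.5.2b and featureCounts (Subread 1.5.2) according to the submitters' processing notes. The notes name GRCh38 and the methods an older build: 85.3% of 18938 coding gene starts in the files lay within 1 kb of RefSeq on GRCh38 and 4.03% on GRCh37. The strand setting of the counting is not given in the sources used here. Each library held 35342393 to 48245989 counts.

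Members, gene lists and tests were chosen with earlier results of these data known. Counts were filtered with filterByExpr, scaled by TMM and tested with edgeR 4.0.16 (quasi-likelihood, R 4.3.3) within the groups compared, and p-values were Benjamini-Hochberg adjusted over all genes tested. A call needs a 2-fold change with an adjusted p below 0.05, and the interaction and ratio tests need the adjusted p alone. Ratios of antisense to sense CPM (prior count 2) were tested with limma 3.58.1 over all opposite-strand pairs that overlap or lie within 1 kb and all named pairs. Pairs other than the named ones were entered in order of position on the chromosome, and the sign of their ratio has no antisense meaning. The steps were tested on simulated data. Alternatives were DESeq2 1.42.0, library totals, no filter, other thresholds, prior count 0.5, overlapping pairs, each library left out and the replicate letter as a block. The letters give no shared source. Deviations of libraries with the same letter correlated by 0.56, 0.279 and 0.331 in the Rh30 knockdown, which is taken as pairing, and by -0.124, -0.339 and 0.297 in ES8, which is not. The Rh30 values given for single genes and pairs still come from fits without the letter, and the block is an alternative only.

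Genes are named by rule: those called in both lines, the 6 largest calls per line and direction, the 3 smallest interaction p, the 5 highest CPM per kb, the threshold edge, the 4 largest ΔRRM calls per line and contrast, the 3 largest line differences per direction, pairs called in both lines, their sense genes and *DNAJC17*. Some items that the rule names are not reported here. Figures were drawn with matplotlib 3.10.9.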

Additional observations from a re-analysis of the deposited data

Results flagged for a closer look

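For 14 antisense genes the knockdown effect differed between the lines in the interaction test, given as the Rh30 change minus the ES8 change on the log2 scale with the adjusted p of edgeR. Those other than *KIF9-AS1*, *KHDC1-AS1*, *TGFB2-AS1*, *MID1IP1-AS1*, *EPB41L4A-AS1* and *ITGB2-AS1* are named because the test passed. The difference was -1.13 for *KIF9-AS1* (0.000984), -1.04 for *PRPF31-AS1* (0.0376), -1.01 for *MID1IP1-AS1* (0.0106) and -0.86 for *KHDC1-AS1* (0.00677). It was -0.59 for *EPB41L4A-AS1* (0.0113), which rose in both lines, -0.52 for *NOP14-AS1* (0.0349) and -0.41 for *PTOV1-AS1* (0.046). On the other side it was 0.49 for *NUTM2A-AS1* (0.0495), 0.65 for *TENM3-AS1* (0.0247), 0.66 for *MNX1-AS1* (0.0141) and 0.99 for *SBF2-AS1* (0.0234). It was 1.88 for *ITGB2-AS1* (0.0185), 2.09 for *TGFB2-AS1* (0.00612) and 4.39 for *NECTIN3-AS1* (0.00696). The last rests on 0, 0 and 1 counts in the ES8 knockdown libraries, against 15, 2 and 9 with sgCTL.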

How the results depend on the processing

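The antisense genes are low in count, and 3 libraries per group limit what can be seen among them. None of the called knockdown log2 fold changes of named genes changed sign under an alternative, though some that missed the threshold did (*ZNF451-AS1* and *EPB41L4A* in ES8, *DPH1-AS1* and *KIF9-AS1* in Rh30), but with library totals the Rh30 ΔRRM calls against sgCTL went from 29 higher and 8 lower to 15 and 22. Without the fold requirement the counts became 22 rises and 18 falls in ES8, 20 rises and 14 falls in Rh30, 176 and 161 for Rh30 ΔRRM against sgCTL and knockdown, and 22 for ES8 ΔRRM against knockdown. At an adjusted p under 0.01 they became 0 falls in ES8, 2 rises and 1 fall in Rh30 and 4 in the interaction, where asking for 2-fold gave 6. Ratio calls of at least 2-fold were 5 in each line. Without a filter on low counts, 2 fell in ES8 and 1 gene was called in ES8 ΔRRM against sgCTL. The cause of these moves other than the changed threshold was not tested. Leaving out 1 library gave 7 to 10 rises and 0 to 2 falls in ES8, 2 to 5 rises and 1 to 4 falls in Rh30, 8 to 17 interaction calls, 41 to 66 ratio calls in ES8 and 14 to 48 in Rh30. It gave 0 to 0, 4 to 7, 38 to 46 and 45 to 53 calls in the ΔRRM comparisons (ES8 against sgCTL and knockdown, then Rh30) and 224 to 234 between the lines. With the replicate letter as a block, ratio calls were 59 in Rh30 and 54 in ES8, knockdown gave 10 rises and 1 fall in ES8 and 4 rises and 3 falls in Rh30, and the interaction gave 13. Of the log2 fold changes of named genes under the alternatives, 250 of ES8 and 253 of Rh30 stayed on their side of the call, and 2 and 11 kept the direction but lost the call.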
